A study of Mus musculus with 8 samples.

Results

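The 10 genes described here are the transcription factors Cebpd and Cebpb, the intermediate filament genes Gfap and Vim, the genes of the secreted proteins Serpina3n, Lcn2, Timp1, A2m and Cp, and the hyaluronan receptor gene Cd44. They were chosen as known genes of gliosis and the acute phase, with earlier results of these data known, and every probe set that the platform annotation assigns to them was taken. That gave 26 of the 45037 probe sets tested, for 10 of the 18193 genes with at least 1 probe set of their own. Cp had 8 probe sets, Cd44 had 4, Gfap and Vim had 3 each, Cebpb and Cebpd had 2 each, and the others had 1.

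Reactive gliosis is the response of glia to injury or stress, in which Müller cells and astrocytes of the retina enlarge, build more intermediate filament protein and secrete proteins that are otherwise known from the acute-phase response of the liver. Its transcripts are commonly used as signs of retinal stress, whatever the cause, because Müller cells span the whole retina and respond to damage in photoreceptors. Interleukin 6 family cytokines acting through STAT3, together with C/EBP and nuclear factor kappa B transcription factors, are the textbook regulators of the acute-phase genes.

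The arrays measured total RNA of retinas freed of retinal pigment epithelium, from BALB/c AJ mice at postnatal day 40. There were 3 arrays labelled wild type (wt/wt), 2 labelled heterozygous Nxnl1 null (ko/wt) and 3 labelled homozygous Nxnl1 null (ko/ko). Nxnl1 encodes rod-derived cone viability factor, and the comparison asks what its loss changes in the retina. The labels do not describe how the null allele was made. Nothing in the labels ties an array to its own animal, so p-values reflect only how far these arrays scatter, and that scatter may be technical. Values are log2 expression as deposited, so a difference of 1 is a doubling, and the number of arrays limits the precision.

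Nxnl1 itself went against the label on 2 arrays. At its brighter probe set the arrays labelled heterozygous 2, homozygous 1 and homozygous 3 read 6.75, 6.13 and 6.13, while that labelled homozygous 2 gave 8.76, that labelled heterozygous 1 gave 8.65 and the wild-type arrays read between 8.65 and 9.22. Rod transcripts were at a like level on all arrays, with a mean over 5 measured rod markers between 13.65 and 13.83. Crystallin transcripts of the lens, which lies next to the retina in the dissected eye, were not. The mean over 8 of 8 lens markers was 8.29 on the array labelled homozygous 1, 7.43 on heterozygous 2, 7.33 on wild type 1 and 7.19 on homozygous 3, and it lay between 5.11 and 5.92 on the other 4. The crystallins Cryaa, Cryba1, Crybb2 and Crygs carried most of that contrast. The others, Bfsp1, Bfsp2, Lim2 and Mip, were above the range of those 4 arrays on homozygous 1. On wild type 1 all but Mip were. On homozygous 3 none of them was, with Bfsp1, Lim2 and Mip at 4.29, 4.98 and 4.88. On heterozygous 2, Bfsp1 and Lim2 were within that range, at 4.27 and 5.19, while Bfsp2 and Mip were slightly above it. The actin controls give a 5′ minus 3′ difference, lower where RNA is more degraded, and it was -1.81 on wild type 1 and -1.74 on homozygous 1, and between -1.26 and -0.69 on the others. The Y-linked Eif2s3y was at 3.46 on wild type 1 and 3.32 on wild type 2. On heterozygous 2, homozygous 1 and homozygous 3, the arrays low in Nxnl1, it was at 7.07, 7.38 and 7.77. On wild type 3, heterozygous 1 and homozygous 2 it was at 8.73, 9.13 and 9.14. Its dimmer probe set gave 4.29, 4.23 and 4.41 on the first 3 of these 6 arrays and 6.47, 5.81 and 5.86 on the others. Xist is transcribed from the inactive X chromosome of females. It was at 6.59 or more on all 8 arrays at each of its 3 probe sets. Thus those 6 arrays carried transcripts of both sexes, and the levels were not balanced between the groups. The part of sex in the members' values was not tested.

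Most of the 10 genes were high and low on the same arrays. Their mean deviation from the average of all 8 arrays was 0.48 on the array labelled homozygous 1 and 0.23 on both homozygous 3 and heterozygous 2, the 3 arrays on which Nxnl1 was low. It was 0.056 on wild type 1, and it was -0.23 and -0.22 on wild type 2 and 3, -0.32 on heterozygous 1 and -0.22 on homozygous 2. The 4 arrays with a positive deviation were also the 4 with the highest lens marker mean, so fits with that mean as a covariate, chosen after the data were seen, are given beside the main ones. Whether that mean, which follows mainly crystallins, stands for lens tissue was not tested. In bulk tissue, fewer cells of a type and less RNA per cell cannot be told apart, for the glia as for the lens.

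**Figure D1:**
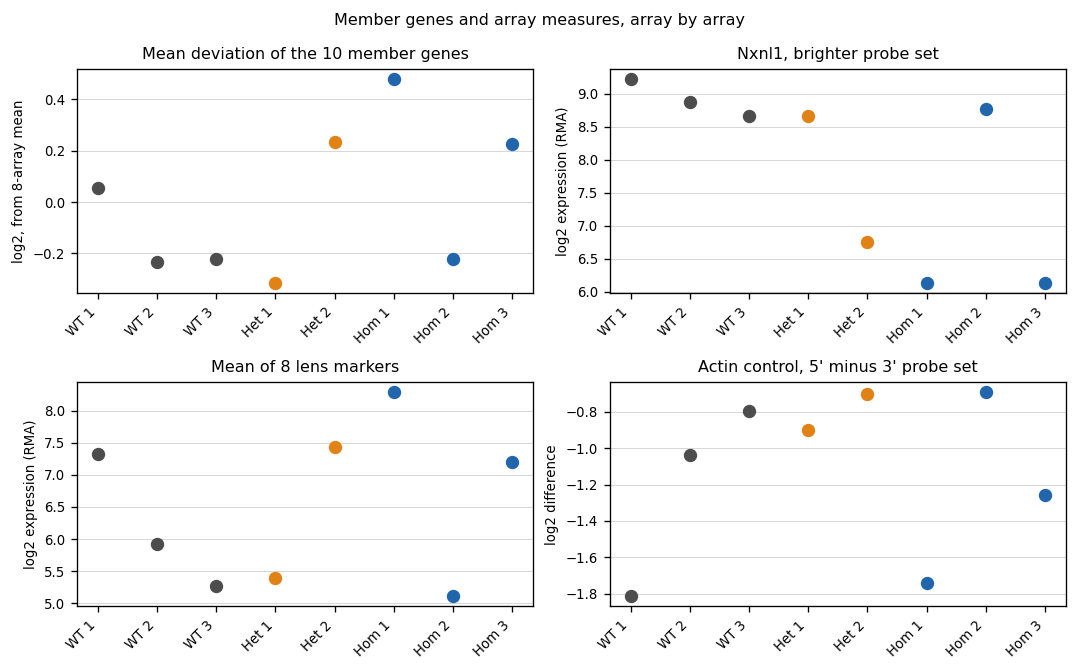
The 4 panels plot, array by array, the mean deviation of the 10 genes from the 8-array mean (log2), Nxnl1 at its brighter probe set (log2), the mean of 8 lens markers (log2) and the actin 5′ minus 3′ difference (log2), with grey for arrays labelled wild type (WT), orange for heterozygous (Het) and blue for homozygous (Hom). The arrays Het 2, Hom 1 and Hom 3 are highest in the first panel at 0.23, 0.48 and 0.23 and lowest in Nxnl1. Together with WT 1 they are the 4 highest in the lens marker mean, which follows mainly crystallins.

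Sequence upstream of the start was at hand for 8 of the 10 genes, and it is shown for Gfap, the most used marker of gliosis, and for Serpina3n and Lcn2, secreted acute-phase members whose windows hold motifs of the factors named above. The windows hold the 250 bases before the RefSeq start site in the assembly GRCm38.p6, read 5′ to 3′ on the gene's strand, with motif matches in capitals. They lie at chr11:102897201-102897450 (minus strand) for Gfap, chr12:104406458-104406707 (plus strand) for Serpina3n and chr2:32387740-32387989 (minus strand) for Lcn2.
Gfap: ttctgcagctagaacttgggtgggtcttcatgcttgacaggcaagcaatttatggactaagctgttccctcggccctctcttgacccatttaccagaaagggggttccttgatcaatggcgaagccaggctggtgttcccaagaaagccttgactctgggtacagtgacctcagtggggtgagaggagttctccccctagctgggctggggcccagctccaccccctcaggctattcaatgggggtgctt
Serpina3n: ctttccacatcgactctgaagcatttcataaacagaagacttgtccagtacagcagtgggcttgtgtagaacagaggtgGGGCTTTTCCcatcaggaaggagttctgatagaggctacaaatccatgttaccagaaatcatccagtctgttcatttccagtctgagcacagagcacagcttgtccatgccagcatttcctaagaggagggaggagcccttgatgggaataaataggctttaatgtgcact
Lcn2: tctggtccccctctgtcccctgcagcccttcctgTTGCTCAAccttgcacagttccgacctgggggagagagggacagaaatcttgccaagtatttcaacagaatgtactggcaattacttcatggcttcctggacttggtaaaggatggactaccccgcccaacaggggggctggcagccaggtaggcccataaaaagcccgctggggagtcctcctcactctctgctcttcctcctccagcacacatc

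Both strands were searched for the letters TTCNNNGAA of STAT factors, TTGCNNAA of C/EBP factors, TGANTCA of AP-1, and for those of nuclear factor kappa B, GGG and TT with any 2 bases between them, then any base and CC. Lcn2 held the C/EBP letters from -216 to -209 and Serpina3n the kappa B letters from -171 to -162, counted back from the start site, and Gfap held none of the 4. Among the 9 windows of the 8 genes, Cp having 2 start sites, the STAT letters were in 0, the C/EBP letters in 2 (Lcn2 and 1 of Cp), the kappa B letters in 2 (Serpina3n and Vim) and the AP-1 letters in 1 (the other of Cp). Of all 32851 windows of the same length in the mouse table, 7.02%, 9.56%, 4.11% and 6.75% held them. No match overlapped that of another motif. A match describes these letters only, and elements farther upstream were not searched.

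None of the 26 probe sets passed the test in any comparison. Limma called 0 of 26 with homozygous against wild type at an adjusted p under 0.05, against 0.0% of all 45037 probe sets, and the smallest adjusted p of any probe set was 0.9999. At an unadjusted limma p under 0.05, 3 of 26 were higher on the arrays labelled homozygous, against 0.535% of all probe sets, and 0 were lower, against 0.377%. These 3 belong to Lcn2, Serpina3n and, at its dimmer probe set, Cebpb, so that 2 of 10 genes counted by their brightest probe set, against 0.621% of all genes. By direction alone, 10 of 10 genes at their brightest probe set and 19 of 26 probe sets lay above wild type, against 60.5% of all genes and 52.1% of all probe sets, and the median log2 difference of the 10 genes was 0.29 beside 0.024 for all genes.

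**Figure D2:**
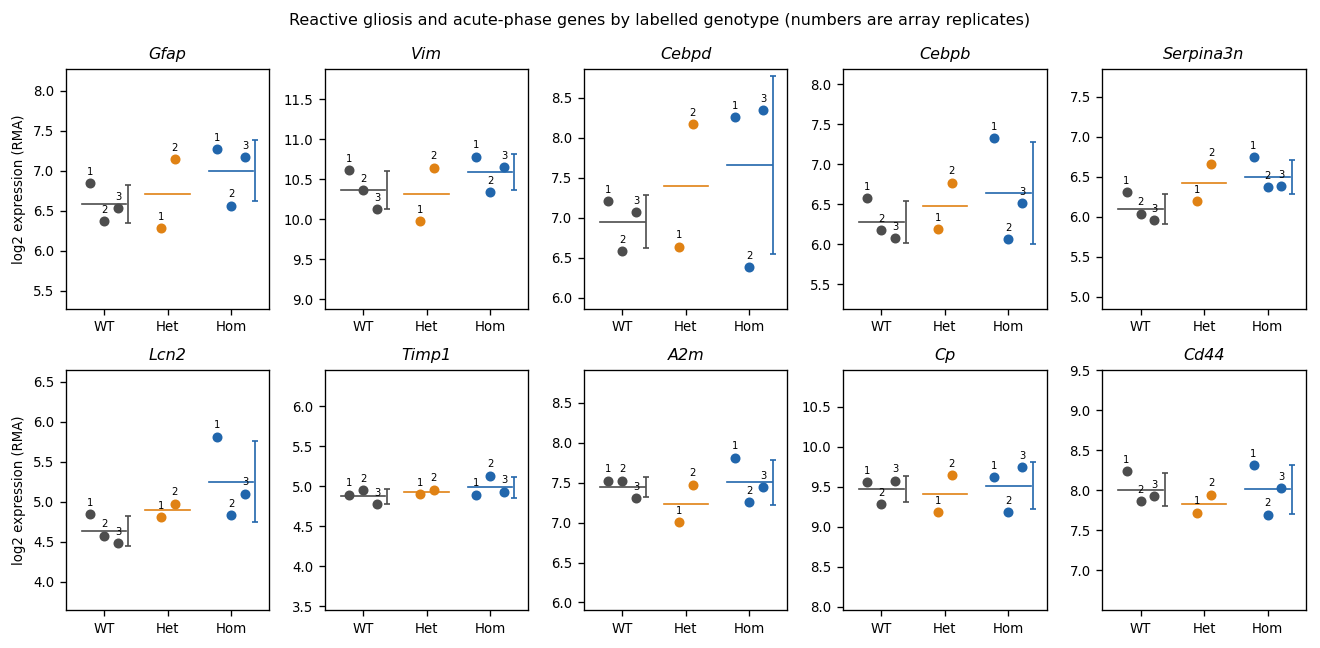
Each panel plots the log2 expression of 1 gene at its brightest probe set on the 8 arrays, grouped by labelled genotype, with the replicate number beside each point, the group mean as a line and the SD (n = 3) as a bar for wild type and homozygous; the heterozygous group of 2 arrays has no bar, and all panels span the same log2 range. Heterozygous 2, homozygous 1 and homozygous 3 sit highest for Gfap, Vim, Cebpd, Serpina3n, Lcn2 and Cp.

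Cebpd, a transcription factor that interleukin 6 and interleukin 1 induce and that drives acute-phase genes, had the widest spread of the 10 genes at its brightest probe set. At that probe set (1423233_at), wild type 1 to 3 gave 7.21, 6.58 and 7.06. The labelled heterozygotes gave 6.64 and 8.17, and the labelled homozygotes 8.26, 6.38 and 8.34. Heterozygous 2, homozygous 1 and homozygous 3 thus stood well above all others, while homozygous 2 was the lowest of the 8. Wild type averaged 6.95 ± 0.33 (SD, n = 3) and the labelled homozygotes 7.66 ± 1.11 (SD, n = 3), which is a log2 difference of 0.71 (SE 0.56, limma unadjusted p 0.242, adjusted p 0.9999), or 1.63-fold. The groups overlapped, with p = 0.4 by an exact permutation test (two-sided), whose floor with 3 arrays a group is 0.1. Leaving out heterozygous 2 and homozygous 2, whose Nxnl1 level went against the label, gave 1.35 (SE 0.20, limma unadjusted p 0.000589, adjusted p 0.976), or 2.55-fold. The homozygous arrays left were then 1 and 3, both high in the lens marker mean. The difference was 0.41 without homozygous array 1 and 0.37 without homozygous array 3. In the lens covariate fit it was 0.33 (SE 0.31). The dimmer probe set of Cebpd, which read 4.75 to 5.18 over the 8 arrays, differed by 0.14 (SE 0.12).

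Cebpb, the partner that binds the same DNA element as Cebpd and mediates the induction of acute-phase genes by interleukin 6, followed a like order with less contrast. At its brighter probe set (1418901_at), wild type 1 to 3 gave 6.58, 6.18 and 6.08. Heterozygous 1 and 2 gave 6.19 and 6.77, and the labelled homozygotes 7.32, 6.06 and 6.52. Homozygous 1 alone was well above the rest, and the difference of 0.36 (SE 0.31) was 0.013 without it, 0.64 without homozygous array 2 and 0.13 (SE 0.13) in the lens covariate fit. The dimmer probe set of Cebpb, by contrast, did not overlap between the groups: the wild-type arrays ran from 3.79 to 4.04 and the labelled homozygotes gave 4.34, 4.13 and 4.10. That difference was 0.29 (SE 0.11, limma unadjusted p 0.0316, adjusted p 0.9999) and 0.24 (SE 0.10) in the lens covariate fit, at values near the lower end of the scale. Homozygous arrays lay wholly above wild type at 2 of 26 member probe sets, against 2.63% of all probe sets, and wholly below at 0 of 26, against 1.84%.

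Gfap, the intermediate filament of astrocytes that Müller cells build up under stress, was higher on the same 3 arrays as Cebpd. Its brightest probe set (1426508_at) gave 6.84, 6.37 and 6.54 for wild type 1 to 3. The labelled heterozygotes gave 6.28 and 7.15, and the labelled homozygotes 7.27, 6.57 and 7.17. Homozygous 2 fell among the wild-type arrays, and heterozygous 1 was the lowest of all. Wild type averaged 6.58 ± 0.24 (SD, n = 3) and the labelled homozygotes 7.001 ± 0.38 (SD, n = 3), which differed by 0.42 (SE 0.26, limma unadjusted p 0.148, exact permutation p = 0.2), or 1.34-fold. The other 2 probe sets of Gfap differed by 0.50 (SE 0.50) and 0.49 (SE 0.35). Of these, 1426509_s_at gave 7.16 and 6.80 for homozygous 1 and 3, but its next highest array was wild type 1 at 6.52, above the 6.39 of heterozygous 2. The 3 probe sets correlated over the 8 arrays with Pearson r between 0.83 and 0.90, as a description of arrays that share RNA quality and dissection.

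Without the 2 arrays whose Nxnl1 level went against the label, the 3 Gfap probe sets differed by 0.64 (SE 0.16), 1.04 (SE 0.32) and 0.87 (SE 0.25), with limma unadjusted p values of 0.00812, 0.019 and 0.0136 and an adjusted p of 0.976 for each. In the lens covariate fit over all 8 arrays they differed by 0.24 (SE 0.14), 0.11 (SE 0.11) and 0.25 (SE 0.16). The actin difference as a covariate left the brightest probe set of Gfap at 0.41 (SE 0.22).

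Vim, which encodes vimentin, the filament protein that Müller cells hold also at rest and that lens fibre cells express strongly, showed small differences in the same order. Its brightest probe set (1438118_x_at) gave 10.61, 10.37 and 10.13 for wild type 1 to 3. Heterozygous 1 and 2 gave 9.98 and 10.64, and the labelled homozygotes 10.78, 10.34 and 10.66. The 3 arrays low in Nxnl1 were the highest, but wild type 1 came close behind. The homozygous group was above wild type by 0.23 (SE 0.20), 0.21 (SE 0.11) and 0.24 (SE 0.19) at the 3 probe sets, and by 0.087 (SE 0.11), 0.16 (SE 0.10) and 0.11 (SE 0.099) in the lens covariate fit. The difference at the brightest was 0.35 without wild type array 1, 0.11 without wild type array 3, 0.13 without homozygous array 1 and 0.35 without homozygous array 2. At 1450641_at, where the range over the 8 arrays was only 0.38, wild type 1 was the lowest array.

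**Figure D3:**
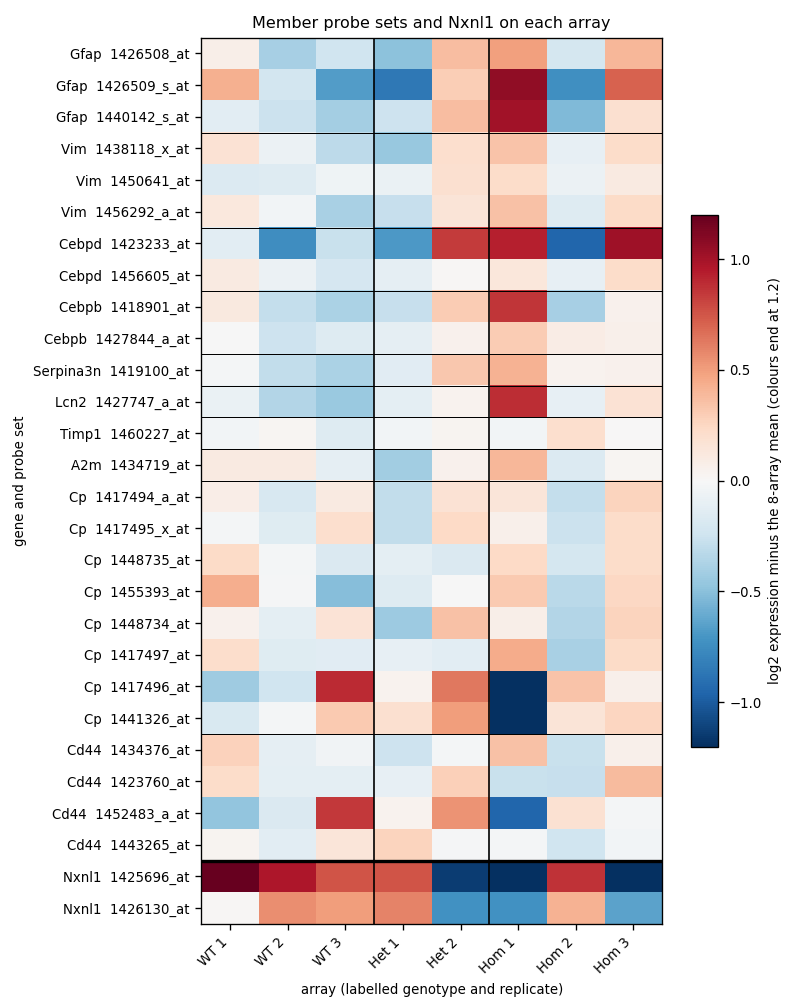
The heat map shows log2 expression minus the 8-array mean for the 26 probe sets of the 10 genes and, below the thick line, the 2 probe sets of Nxnl1, with arrays in columns by labelled genotype and colours that end at 1.2 in either direction. Columns Het 2, Hom 1 and Hom 3 are red for Gfap, Vim and the brighter probe set of Cebpd where Nxnl1 is blue, and 2 probe sets of Cp and 1 of Cd44 run the other way on Hom 1 and WT 1. The dimmer probe set of Cebpd is nearly white on Het 2, and WT 1 is also red at 1426509_s_at of Gfap.

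Serpina3n and Lcn2, the secreted proteins most often used as markers of reactive astrocytes, were the members with the smallest p at the brightest probe set. Serpina3n, an inhibitor of serine proteases related to human antichymotrypsin, gave 6.31, 6.04 and 5.96 for wild type 1 to 3 (1419100_at). The labelled heterozygotes gave 6.20 and 6.66, and the labelled homozygotes 6.75, 6.37 and 6.38. All 3 homozygous arrays were above all 3 wild-type arrays, though homozygous 2 and 3 exceeded wild type 1 only slightly. The difference was 0.40 (SE 0.17, limma unadjusted p 0.042, adjusted p 0.9999), or 1.32-fold, with an exact permutation p of 0.1, the smallest that the design allows. It was 0.46 (SE 0.17) without heterozygous 2 and homozygous 2, 0.30 (SE 0.11) in the lens covariate fit and 0.39 (SE 0.14) in the actin covariate fit, and it ran from 0.27 to 0.50 with 1 array left out. Serpina3n has close paralogs in mouse, and probes may not separate all of them.

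Lcn2, lipocalin 2, binds bacterial siderophores and is induced in glia by inflammation. Its only probe set (1427747_a_at) gave 4.85, 4.57 and 4.48 for wild type 1 to 3. Heterozygous 1 and 2 gave 4.81 and 4.97, and the labelled homozygotes 5.81, 4.83 and 5.10. Homozygous 1 was set apart, while homozygous 2 lay just below wild type 1, so the groups overlapped at the edge. The difference was 0.61 (SE 0.23, limma unadjusted p 0.0294, adjusted p 0.9999), or 1.53-fold, and 0.33 without homozygous array 1. The lens covariate fit gave 0.47 (SE 0.14, limma unadjusted p 0.0114, adjusted p 0.9999) and the actin covariate fit 0.60 (SE 0.14, limma unadjusted p 0.00191).

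Timp1, an inhibitor of matrix metalloproteinases that reactive glia commonly induce, had the narrowest range and a different order of arrays. At its only probe set (1460227_at), wild type 1 to 3 gave 4.89, 4.95 and 4.77. The labelled heterozygotes gave 4.90 and 4.96, and the labelled homozygotes 4.89, 5.13 and 4.93. Its highest array was homozygous 2, on which most other members were low. The difference was 0.11 (SE 0.10), 0.064 without wild type array 3 and 0.041 without homozygous array 2. Over the 8 arrays its Pearson r with the other 9 members ran from -0.46 with Cp to 0.31 with Serpina3n, whereas the r of the other members with each other ran from 0.41 to 0.94, highest between Gfap and Cebpd.

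A2m, which encodes a broad protease inhibitor of plasma that is a major acute-phase protein in rat, gave 7.52, 7.52 and 7.31 for wild type 1 to 3 (1434719_at). Heterozygous 1 and 2 gave 7.003 and 7.47, and the labelled homozygotes 7.81, 7.25 and 7.44. The groups overlapped, with a difference of 0.052 (SE 0.17) that became -0.10 without homozygous array 1. The probe set belongs to the gene now called A2m, not to Pzp, which once carried that symbol.

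Cp encodes ceruloplasmin, a copper-binding ferroxidase that Müller cells and the acute-phase liver produce. Its brightest probe set (1417494_a_at) gave 9.55, 9.28 and 9.58 for wild type 1 to 3. The labelled heterozygotes gave 9.18 and 9.65, and the labelled homozygotes 9.62, 9.18 and 9.74. The same 3 arrays led again, but closely followed by wild type 3 and 1, and the group difference was 0.045 (SE 0.18). The 6 brightest probe sets of Cp differed by -0.036 to 0.12, whereas 1417496_at and 1441326_at differed by -0.38 (SE 0.48) and -0.31 (SE 0.36).

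At these 2 probe sets of Cp, and at 1452483_a_at of Cd44, the arrays labelled homozygous 1 and wild type 1 were the lowest and second lowest of the 8. Cp 1417496_at gave 5.90 on homozygous 1 and 6.79 on wild type 1, against 8.11 on wild type 3 and 7.85 on heterozygous 2. Cd44 1452483_a_at gave 4.01 and 4.49 on the first pair and 5.82 and 5.51 on the second. Homozygous 1 and wild type 1 had the lowest actin 5′ minus 3′ differences, and without them the log2 differences at the 3 probe sets were -0.13, 0.064 and -0.26 in place of -0.38, -0.31 and -0.33. Any part of RNA quality in these values was not tested beyond that. Between Cp 1417496_at and Cp 1448735_at, probe sets of the same gene, r over the 8 arrays was -0.76.

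Cd44, the receptor for hyaluronan and osteopontin that gliotic Müller cells display, had overlapping groups at all 4 of its probe sets. The brightest (1434376_at) gave 8.24, 7.86 and 7.92 for wild type 1 to 3. Heterozygous 1 and 2 gave 7.72 and 7.94, and the labelled homozygotes 8.31, 7.69 and 8.03. Homozygous 1 and wild type 1 were the 2 highest arrays, and the group means of 8.01 in both genotypes differed by 0.0038 (SE 0.17). The other 3 probe sets differed by -0.047 (SE 0.20), -0.33 (SE 0.39) and -0.12 (SE 0.12).

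**Figure D4:**
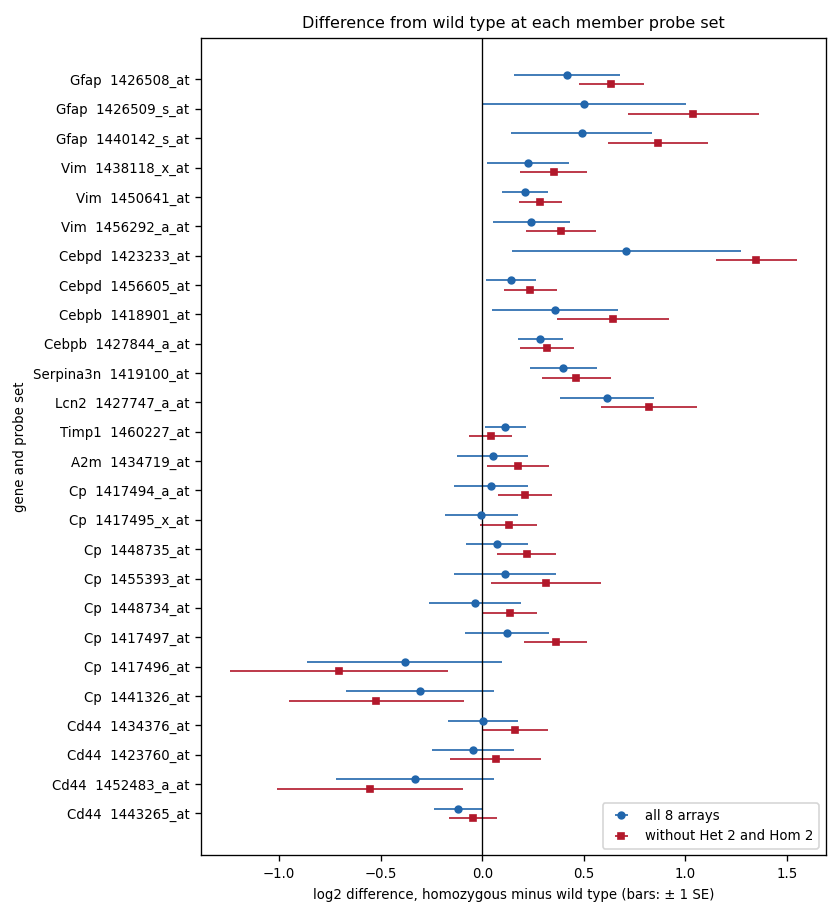
For each of the 26 probe sets the plot gives the log2 difference of homozygous minus wild type with a bar of 1 SE from limma, in blue for all 8 arrays and in red without the arrays labelled Het 2 and Hom 2. Without the 2 arrays the points farthest to the right are 1423233_at of Cebpd at 1.35, 1426509_s_at and 1440142_s_at of Gfap at 1.04 and 0.87, and Lcn2 at 0.82. The points of Timp1 lie near 0, and 2 probe sets of Cp and 1 of Cd44 lie to the left.

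Leaving out heterozygous 2 and homozygous 2 gave larger differences for 9 of the 10 genes at their brightest probe set, Timp1 being the exception, and the median became 0.41. Of the 26 probe sets, 22 were then above wild type, against 51.0% of all probe sets. These arrays were set aside for their Nxnl1 level and not for the members' own values, but with the values known. The homozygous arrays left, 1 and 3, had lens marker means of 8.29 and 7.19. The wild-type arrays had 7.33, 5.92 and 5.27. The lens covariate was not fitted without the arrays set aside, so the part of the lens signal in these larger differences was not tested. At an unadjusted limma p under 0.05, 7 of 26 probe sets were then higher, against 1.33% of all probe sets, and 0 were lower. They were the 3 of Gfap, 1 of Vim, 1 of Cebpd and those of Serpina3n and Lcn2, and 0 of 26 passed the adjusted threshold, against 0.0% of all probe sets.

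Heterozygous 2, homozygous 1 and homozygous 3 were the 3 highest of the 8 arrays at 9 of 26 member probe sets, against 2.18% of all probe sets, and at 6 of 10 genes by their brightest probe set, against 3.06% of all genes. They were the 3 lowest at 0 of 26, against 1.85%. Probe sets of 1 gene share transcripts, and these 3 arrays are not a group of the study, so the counts are a description. The lens markers had this order at 2 of 8, microglial markers at 3 of 11, cone markers at 2 of 5, bipolar cell markers at 1 of 3, Müller glia markers at 1 of 13 (Clu) and astrocyte, vascular, rod and pigment epithelium markers at 0 of 5, 10, 5 and 7.

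The 2 arrays labelled heterozygous differed widely from each other. The array labelled heterozygous 1 was the lowest of all 8 at 4 of the 10 genes, and heterozygous 2 was among the 3 highest at most of them. Against wild type, 6 of 10 genes and 16 of 26 probe sets lay above 0, where 47.6% of all genes and 50.6% of all probe sets did, with a median over the 10 genes of 0.094 beside -0.0066 for all genes. Cebpd differed by 0.45 (SE 0.63), Serpina3n by 0.32 (SE 0.19), Lcn2 by 0.26 (SE 0.26) and Gfap by 0.13 (SE 0.29). Serpina3n differed by 0.095 without heterozygous array 2 and 0.55 without heterozygous array 1, and Lcn2 ran from 0.17 to 0.36 with 1 array left out. Limma called 0 of 26 probe sets, and 0 had an unadjusted p under 0.05, against 0.0% called and 0.511% higher and 0.635% lower over all probe sets. Homozygous against heterozygous likewise gave 0 of 26 calls, against 0.0%, with 21 of 26 above 0, against 53.5%, and 0 at an unadjusted p under 0.05, against 0.537% higher and 0.362% lower over all probe sets. Both comparisons share arrays with that of homozygous against wild type.

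The members form part of lists of related genes, and 0 genes of these 14 lists passed the test in either direction. Over all genes 60.5% lay above wild type in the homozygous group, which is the share beside each list's count. Of the 13 genes induced in reactive astrocytes of every type, 11 were above wild type in the homozygous group, with a median of 0.050 beside 0.024 for all genes, and with 7 of 13 when the lens markers were a covariate. Lcn2, Serpina3n, Gfap and Timp1 had the smallest p. Of the genes named for neurotoxic (A1-type) astrocytes, 9 of 9 measured members were above wild type, with a median of 0.19. They were led by Serping1, the inhibitor of complement C1, at 0.76 (SE 0.17), which ran from 5.59 to 5.87 in wild type and gave 6.67, 6.08 and 6.61 for the labelled homozygotes. Srgn, a proteoglycan of immune cell granules, followed at 0.33 (SE 0.19), Fkbp5, a glucocorticoid-induced chaperone, at 0.19 (SE 0.12), and H2-D1, a class I antigen-presenting molecule, at 0.36 (SE 0.25). Of the genes named for A2-type astrocytes, 9 of 12 were above wild type with a median of 0.043, among them Cd109 at 0.20 (SE 0.10) and Tm4sf1 at 0.19 (SE 0.16), while Tgm1 and Emp1 were at -0.19 (SE 0.11) and -0.13 (SE 0.099).

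Acute-phase plasma protein genes had 12 of 18 measured members above wild type and a median of 0.023. Their leading members were the hyaluronan-binding Itih3 at 0.18 (SE 0.096), near the lower end of the scale, haptoglobin (Hp) at 0.18 (SE 0.11), Ttr, the thyroid hormone carrier that the pigment epithelium makes, at -0.33 (SE 0.25), and hemopexin (Hpx) at -0.15 (SE 0.13). Ttr is itself a pigment epithelium marker, and 6 of those 7 markers were below wild type. Both Ttr and their mean (9.29, 9.30 and 9.15) were highest on wild type 1, wild type 2 and homozygous 1, and the part of that tissue in the Ttr value was not tested. On the heterozygous arrays 0 of the 18 had a mean above wild type, against 47.6% of all genes, with a median of -0.085. That group has only 2 arrays, and the Nxnl1 level of heterozygous 2 went against its label. Intermediate filament and cytoskeleton genes had 7 of 10 above wild type and a median of 0.025, with Nes, the filament of progenitors and reactive glia, at 0.12 (SE 0.089) and Synm at 0.20 (SE 0.20) beside Gfap and Vim.

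Receptors and signal genes of the interleukin 6 family had 14 of 18 above wild type and a median of 0.077. The cytokine Lif, a ligand of this family, differed by 0.30 (SE 0.0997), the STAT3 target Pim1 by 0.15 (SE 0.090), Bcl3 by 0.15 (SE 0.095), and the receptor Lifr by -0.14 (SE 0.11). Interleukin 1 and nuclear factor kappa B genes had 11 of 15 above wild type and a median of 0.040, led by the tumor necrosis factor receptor Tnfrsf1a at 0.18 (SE 0.11), Relb at 0.19 (SE 0.18), Rela at 0.097 (SE 0.096) and Icam1 at 0.095 (SE 0.10). Lif read 4.54 to 5.08 over all arrays, Relb 4.40 to 5.16 and Icam1 3.68 to 3.94, toward the lower end of the scale. Of the C/EBP family, 3 of 5 were above wild type, and beyond the members Ddit3 differed by 0.080 (SE 0.13) and Cebpg by -0.039 (SE 0.089). Heterozygous 2, homozygous 1 and homozygous 3 were the highest arrays at 1 of these 5 genes, Cebpd itself, against 3.06% of all genes.

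Among the partners of single members, 2 of 3 measured serpin A3 genes were above wild type, Serpina3i at 0.11 (SE 0.11) and Serpina3a at -0.20 (SE 0.13) lying near the lower end of the scale. Metalloproteinases and their inhibitors had 6 of 11 above wild type, with Mmp19 at 0.14 (SE 0.085), Mmp9 at 0.30 (SE 0.23), Adamts4 at 0.13 (SE 0.11) and Timp4 at -0.13 (SE 0.084). The alpha-2-macroglobulin family and its receptor had 5 of 6, with the receptor Lrp1 at 0.11 (SE 0.11), its chaperone Lrpap1 at 0.12 (SE 0.10) and Mug1 at 0.036 (SE 0.12). Hyaluronan genes and Cd44 ligands had 8 of 10, with the proteoglycan Bcan at 0.25 (SE 0.16), the synthases Has1 at 0.094 (SE 0.094) and Has3 at 0.089 (SE 0.092), and Has2 at -0.14 (SE 0.12). Iron and copper genes had 12 of 15, with the ferritin chain Fth1 at 0.17 (SE 0.10), the lipocalin receptor Slc22a17 at 0.20 (SE 0.12) and Steap3 at 0.12 (SE 0.088). The medians of these 5 lists lay between 0.052 and 0.11.

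Growth factors of stressed Müller glia had 8 of 12 above wild type and a median of 0.043. Of these 12 genes, 3 had heterozygous 2, homozygous 1 and homozygous 3 as their highest arrays, against 3.06% of all genes. The matricellular Ccn2 read 8.64, 8.82 and 8.88 on these arrays, 7.58 on homozygous 2 and between 7.94 and 8.16 on the others, a labelled difference of 0.30 (SE 0.34). The peptide Edn2, which photoreceptors release under stress, read 8.18, 7.63 and 8.68 there and at most 6.03 elsewhere, a labelled difference of 1.93 (SE 1.02). Tgfb2 differed by 0.18 (SE 0.18), with its highest values on the same arrays (9.49, 9.60 and 9.46), and Egfr by 0.11 (SE 0.11).

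Genes with the most similar pattern were sought among 5631 others with a range of at least 0.5 over the 8 arrays. Closest to the mean of the 10 members were Npl (Pearson r 0.98), a sialic acid lyase, Cryab (0.98), a small heat shock protein made in lens and in stressed glia, Clu (0.98), the chaperone clusterin of Müller cells, and Lyz1 (0.98), a lysozyme. Cryab was at 11.76 on homozygous 1, 10.71 on homozygous 3, 10.59 on heterozygous 2 and 10.35 on wild type 1, and from 9.01 to 9.53 on the other 4. Closest to Gfap were Calcrl (0.96), a receptor subunit for calcitonin-like peptides, Lyz1 (0.96), the transcription factor Maf (0.95) and Clu (0.95). Closest to Serpina3n were the class I molecule H2-K1 (0.95), Prkag3 (0.95), the B-cell adaptor Blnk (0.94) and Tspan4 (0.93). Closest to Lcn2 were Dhps (0.97), Ppp1r3b (0.97), the stress protein Nupr1 (0.97) and Blnk (0.97), and closest to Cp were Ltbp3 (0.95), Fut11 (0.92), Bub1b (0.91) and Chrdl1 (0.90). These are descriptions of 8 arrays that share dissection and RNA quality.

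The mean over 13 of 13 Müller glia markers ranged from 10.17 to 10.29 in wild type, from 10.07 to 10.15 in the heterozygous and from 10.13 to 10.29 in the homozygous group, with 6 of 13 above wild type. Over all genes 60.5% lay above wild type, which is the share beside each such count of markers. Astrocyte markers (5 of 6 measured) ranged from 7.75 to 8.42, from 7.92 to 7.96 and from 7.89 to 8.30, with the wild-type array 1 the highest. Microglial and macrophage markers (11 of 11) ranged from 5.59 to 5.93, from 5.70 to 6.05 and from 5.76 to 6.11, with 9 of 11 above wild type. Their 4 highest means, 6.11 on homozygous 1, 6.05 on heterozygous 2, 5.93 on wild type 1 and 5.88 on homozygous 3, were on the 4 arrays with a positive member deviation, and the part of microglia in the members' values was not tested. The Müller marker Clu likewise followed the members' mean, as given above. Vascular markers (10 of 10) ranged from 6.76 to 6.81, from 6.79 to 6.94 and from 6.79 to 7.21, with 9 of 10 above wild type and a median of 0.17. Lens markers ranged from 5.27 to 7.33, from 5.39 to 7.43 and from 5.11 to 8.29, with 7 of 8 above wild type. Cryaa, an alpha crystallin, was at 11.72 on homozygous 1, 10.44 on heterozygous 2, 10.27 on homozygous 3, 9.34 on wild type 1 and at most 7.09 on the other 4. With the lens markers as a covariate, 7 of the 10 genes stayed above wild type, and A2m, Cp and Cd44 were at -0.059, -0.052 and -0.11. Of the markers of other tissues that a dissection could add, those of the pigment epithelium (7 of 7) had means from 8.71 to 9.30 in wild type, from 8.48 to 8.61 in the heterozygous and from 8.54 to 9.15 in the homozygous group, with 1 of 7 above wild type and a median of -0.33, although the retinas were dissected free of it. Markers of cornea, iris and ciliary body (6 genes measured) had means between 4.98 and 5.26, with 4 of 6 above wild type. Those of hepatocytes (4 of 5 measured) and of blood (2 of 5) were near the lower end of the scale on all arrays, with means between 4.27 and 4.58 and between 3.88 and 4.35.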

How the data were processed

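Total RNA was labelled as biotinylated cRNA and hybridised to Affymetrix 3′ expression arrays, per the labels' protocols. The deposited values are log2 intensities from RMA, a method named in the submitters' processing notes without version or settings. RMA equalises the arrays' distributions, so changes are relative to the bulk of transcripts. The design text speaks of 9 samples, of which 8 were analysed here. The 64 control probe sets were left out. Symbols came from the platform annotation, and a gene stands here by its probe set of highest mean. Group means of all 8 arrays were fitted with limma 3.58.1 in R 4.3.3 (eBayes, two-sided, 5 residual degrees of freedom), with Benjamini-Hochberg adjustment over 45037 probe sets and a threshold of 0.05; the script was tested on simulated data. Means, counts and correlations were computed in Python 3.11.15. Affymetrix ends a probe set's name in _a_at, _s_at or _x_at where its probes match several transcripts or may match other sequences.

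The members, gene lists and tests were chosen with earlier results of these data known. Named were all members, up to 4 genes of smallest p per list and the 4 most similar genes for Gfap, Serpina3n, Lcn2, Cp and the members' mean. Further fits repeated the quantile normalization, equalised array medians, left out probe sets below the median, put an intensity trend in the prior, used 2 groups only, added the replicate number as a block, left out each array, left out heterozygous 2 with homozygous 2 or wild type 1 with homozygous 1, added the actin difference or, chosen after the data were seen, the lens marker mean as a covariate, and averaged a gene's probe sets.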

Additional observations from a re-analysis of the deposited data

How the results depend on the processing

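The count of called probe sets was 0 for all 3 comparisons under every alternative except leaving out 1 array, where it ran from 0 to 1 for homozygous and for heterozygous against wild type. The 1 call came without wild type array 3, at a probe set with no single symbol (1426438_at), and left as wild type the 2 arrays low in Eif2s3y. No member passed under any alternative, with lowest adjusted p values of 0.943 and 0.9998 in the 2 comparisons. For homozygous against wild type, Gfap, Vim, Cebpd, Cebpb, Serpina3n, Lcn2 and Timp1 kept their direction under all alternatives run on them; Lcn2 and Timp1 were not in the fit without dim probe sets. Of the 10 genes, from 7 to 10 stayed above wild type with 1 array left out. A2m turned to -0.067 without the arrays of lowest actin difference and to -0.059 with lens markers as a covariate, and ran from -0.10 to 0.18 with 1 array left out. Cp turned to -0.052 with lens markers and to -0.047 over the mean of its probe sets, and ran from -0.068 to 0.21. Cd44 turned to -0.012 with repeated quantile normalization, -0.0028 with the actin covariate, -0.031 without the arrays of lowest actin difference, -0.11 with lens markers and -0.12 over the mean of its probe sets, and ran from -0.15 to 0.16.

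For heterozygous against wild type, removing heterozygous 2, which leaves 1 array assumed to vary like the other groups, turned Gfap to -0.30, Cebpd to -0.31 and Cebpb to -0.090. With 1 array left out, Gfap ran from -0.30 to 0.56, Cebpd from -0.31 to 1.22, Cebpb from -0.090 to 0.49, Vim from -0.39 to 0.28, A2m from -0.45 to 0.022 and Cp from -0.29 to 0.18. Vim turned to 0.095 with the actin covariate, 0.066 without the arrays of lowest actin difference and 0.054 over the mean of its probe sets. Cp turned to 0.025 with the replicate block, 0.026 with the actin covariate and 0.015 over its probe sets, and Cd44 to 0.0064 with the actin covariate and 0.063 over its probe sets. The cause was not tested.

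Arrays with the same replicate number deviated together with r of 0.62, 0.23 and -0.03 for pairs 1, 2 and 3 of wild type and homozygous arrays. Wild type 1 and homozygous 1 were also the arrays of lowest actin difference. The labels give only the number, and whether arrays of 1 number share a batch was not tested. The replicate block gave 0 calls for each comparison and left the homozygous differences at 0.42 for Gfap and 0.71 for Cebpd. Counts above wild type moved by over 1.5 times for 4 lists: the astrocyte list from 11 to 7 of 13 without wild type array 3, without homozygous array 1 or with lens markers, the C/EBP list from 3 to 5 of 5 without homozygous array 2, alone or with heterozygous 2, the alpha-2-macroglobulin list from 5 to 3 of 6 without wild type array 3, and the hyaluronan list from 8 to 4 of 10 without the arrays of lowest actin difference, and to 5 without homozygous array 1 or with lens markers. The number of arrays and the absence of detection calls limit what can be said of Lcn2, Timp1 and the dim probe sets of Cebpb, Cp and Cd44. The same holds for list genes at like levels, among them Lif, Hp, Cd109, Tgm1, Relb and Icam1.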
